A study of Rattus with 9 samples.

Results

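Transforming growth factor-β (TGF-β) signaling genes were followed through the cells of the rat bile duct after liver transplantation (LT). The set holds 9 genes of the 23999 features in the matrices, chosen by symbol: the ligands Tgfb1, Tgfb2 and Tgfb3, the latent ligand carrier Ltbp1, the receptors Tgfbr1, Tgfbr2 and Tgfbr3, and the feedback regulators Smad7 and Skil. The rule for membership names symbols and uses no measured value, but the 9 genes were chosen with earlier results of these data known. Rat extrahepatic bile duct was digested, cleared of red and dead cells and profiled by droplet single-cell RNA sequencing, which counts captured RNA molecules by unique molecular identifiers (UMIs). There were 9 samples and 20 libraries. The sham group (sham 1, sham 2, sham 3) had 1 library per sample and no day on its labels. The ctrl group (post-LT) was rats transplanted with ischemic injury, sampled once at day 1, once at day 3 and once at day 7 with 3 libraries each time. The treat group (raised flow) was transplanted in the same model, and the splenic and gastroduodenal arteries were tied as well to raise hepatic arterial flow. It was sampled on the same days, with 3, 2 and 3 libraries. A further library of treat day 3 was not analysed here. Both transplanted groups thus share the transplantation and the ischemic injury, and the sham group has neither. The labels name no genotype, strain or age. The study's methods name Sprague-Dawley rats of both sexes, with a range of age and weight, for its animal work. The study credits its rat single-cell data to earlier work of its authors, so these details may not hold for the rats used here. Whether separate rats stand behind the libraries of a sample, or behind the samples of a group, is not stated on the labels. The p-values thus measure only the spread between these samples, which may be technical. The samples of each transplanted group differ in day, so in group comparisons against sham that spread also holds the differences between days.

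TGF-β ligands are secreted in a latent form, held by their propeptide and by carrier proteins such as LTBP1 in the extracellular matrix, and act after release. The active ligand binds the type II receptor TGFBR2, which phosphorylates the type I receptor TGFBR1, while TGFBR3 (betaglycan) is a co-receptor that presents ligand, TGF-β2 above all. TGFBR1 then phosphorylates SMAD proteins that enter the nucleus, and SMAD7 and SKIL (SnoN) hold the signal back. In bile ducts this pathway is known for its part in fibrosis and in the change of epithelial cells toward mesenchymal traits.

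After filtering, 139869 cells remained, between 2280 in sham 1 and 31655 in ctrl day 7, with 9054168 UMIs in the cells of sham 1 and up to 192493351 in those of treat day 1. Cells were clustered without the 9 genes, and 15 types were named from markers, holding 82.29% of the cells. These types are marker-based and "-like" in each case: biliary epithelial cells (BEC), blood endothelial cells (EC), lymphatic endothelial cells (LEC), vascular smooth muscle cells (VSMC), fibroblasts, macrophages, monocytes, NK and T cells (NK&T), B cells, neutrophils, dendritic cells, Schwann cells and smaller types. The BEC markers expected of bile duct were detected in both BEC clusters. The makeup of the samples differed widely, since the fibroblast share was 4.04%, 33.7% and 45.5% in sham, 2.45%, 5.47% and 3.35% in ctrl and 23.6%, 5.78% and 3.65% in treat at days 1, 3 and 7. At most 0.327% of cell barcodes were common to any pair of libraries. A limit on hemoglobin removed most barcodes of 2 ctrl day 3 libraries (2472 of 2914 and 3961 of 4307), and leaving these libraries out changed no count of called genes given below. Levels are given as CPM, the UMIs of a gene per 1000000 UMIs of the same cells, summed over the cells of a type in a sample. The 6 markers of pancreatic acinar cells were higher in sham within other types. Their sums were 48.2 to 800 CPM in sham EC and 3.5 to 17.2 CPM in transplanted EC. In macrophages they were 66.6 to 1122 CPM and 2.915 to 19.2 CPM, and in fibroblasts 29.1 to 458 CPM and 2.21 to 12.6 CPM. Monocytes and VSMC also showed no overlap. The part of this difference in the results below was not tested.

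Each gene had its own order of cell types. The orders below take the 12 types with at least 20 cells in 6 or more samples, and give the mean ± SD over those samples. Because day and arm differ among the samples, the SD holds those differences as well.

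Tgfb1, the ligand made by many leukocytes, was highest in leukocytes other than neutrophils and lowest in BEC. It stood at 239 ± 74.4 CPM in NK&T (n = 9), 239 ± 68.1 CPM in dendritic cells (n = 8), 236 ± 80.2 CPM in B cells (n = 8), 222 ± 69.9 CPM in monocytes (n = 9) and 199.6 ± 48.0 CPM in macrophages (n = 9). LEC (174.5 ± 29.9 CPM, n = 8) and EC (136 ± 26.2 CPM, n = 9) followed. Fibroblasts, at 28.1 ± 9.36 CPM, and BEC, at 16.8 ± 7.15 CPM (both n = 9), came last. Tgfb2, which in many tissues comes from stromal and epithelial cells, was found in the vessel and stromal types. Its means were 41.5 ± 55.5 CPM in LEC (n = 8), 25.9 ± 14.4 CPM in fibroblasts, 25.8 ± 18.7 CPM in EC and 25.1 ± 12.5 CPM in VSMC (n = 9 each). The LEC mean rested on treat day 1 and was 22.3 CPM without it (n = 7), below the other 3. In BEC it was 7.89 ± 6.01 CPM. Tgfb3, known as a mesenchymal ligand, was found mainly in VSMC (59.7 ± 49.9 CPM) and fibroblasts (59.1 ± 29.6 CPM), with 16.4 ± 11.1 CPM in LEC, 6.58 ± 3.49 CPM in BEC and 1.99 ± 0.902 CPM in EC. In the leukocyte types its mean was at most 0.661 CPM, and free RNA, estimated from empty barcodes, could account for a median of 55.2% of the Tgfb3 UMIs in B cells.

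The carrier Ltbp1 was 112 ± 55.3 CPM in LEC (n = 8), 91.7 ± 31.8 CPM in VSMC, 77.7 ± 22.8 CPM in fibroblasts (n = 9 each), 49.7 ± 36.2 CPM in Schwann cells (n = 6) and 29.9 ± 19.7 CPM in EC (n = 9). It was 4.78 ± 1.77 CPM in BEC and at most 0.811 CPM in the leukocyte types.

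The 3 receptors had different orders. Tgfbr1 was 64.0 ± 31.5 CPM in macrophages and 59.4 ± 15.6 CPM in BEC (n = 9 each), and 30.9 ± 21.4 CPM or less in the other types. Tgfbr2 was 65.5 ± 54.4 CPM in LEC (n = 8) and 48.65 ± 29.5 CPM in EC (n = 9), and lowest in VSMC at 8.13 ± 2.92 CPM. Tgfbr3 was 199 ± 53.5 CPM in fibroblasts, 173 ± 49.7 CPM in LEC, 97.8 ± 31.2 CPM in EC and 37.3 ± 8.46 CPM in VSMC, against 3.69 ± 2.60 CPM in NK&T and 2.31 CPM in BEC. BEC thus held Tgfbr1 at a level near that of macrophages, with means of 9.21 CPM for Tgfbr2 and 2.31 CPM for Tgfbr3 that stood 10th and 8th of the 12 types for those genes. For the Tgfbr3 UMIs of BEC, free RNA could account for a median of 32.1%.

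Of the feedback genes, Smad7 had its highest mean in NK&T at 216 ± 79.3 CPM (n = 9), followed by B cells at 124 ± 58.6 CPM (n = 8). Outside the leukocytes, Smad7 was 86.5 ± 30.6 CPM in VSMC and lowest in LEC at 11.6 ± 5.99 CPM. Skil was 116 ± 31.7 CPM in B cells, 111 ± 60.5 CPM in neutrophils, 89.45 ± 54.6 CPM in macrophages and 88.0 ± 38.7 CPM in NK&T, and its lowest mean was 14.6 ± 7.55 CPM in VSMC.

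**Figure D1:**
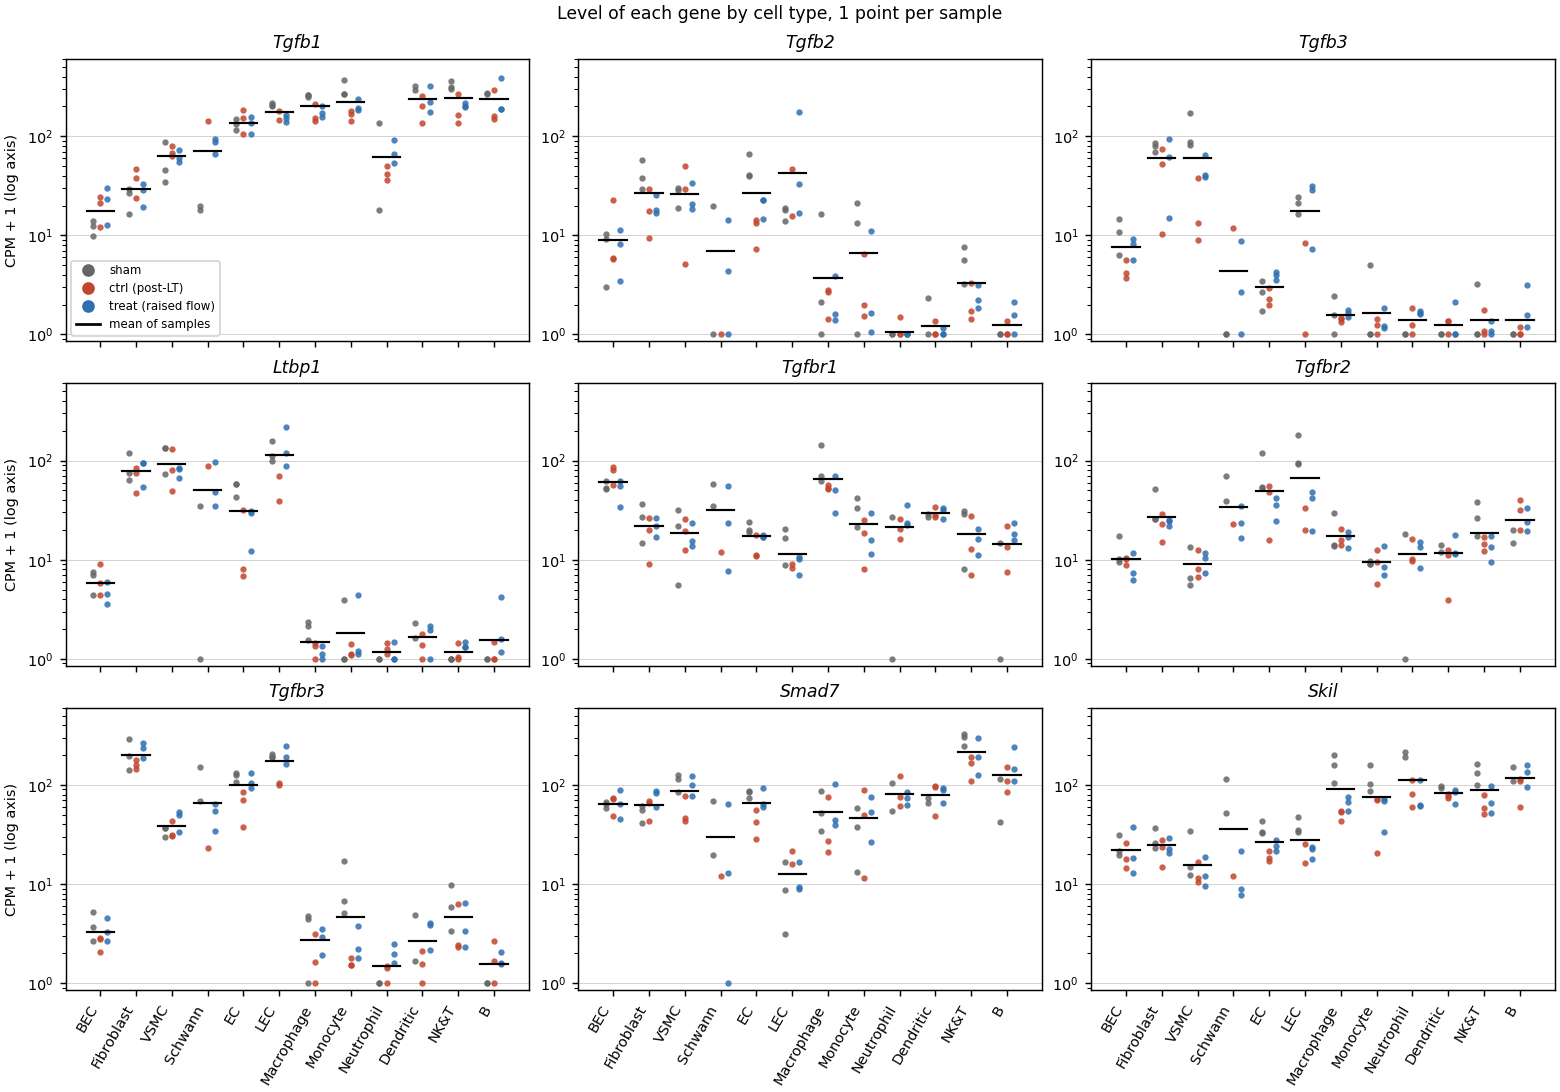
Level of each gene (CPM plus 1, log axis) in 12 cell types, 1 panel per gene. Each point is a sample with at least 20 cells of the type, colored by sham, ctrl or treat, and black bars are means of samples. Tgfb1 stands highest in leukocytes other than neutrophils, Tgfb3, Tgfbr3 and Ltbp1 in stromal and vessel types, and the points of adjoining types overlap for most genes.

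Neighbors in these orders were compared within samples, by a two-sided exact sign-flip permutation test of the log2 difference (1 CPM added). None of the 99 pairs passed a Benjamini-Hochberg adjusted p of 0.05, and 14 had an unadjusted p under 0.05. The lowest adjusted p was 0.0967, and 9 samples cannot give an unadjusted p under 0.00391. Over 99 pairs, a pair could pass only if several lay at or near that floor. The lack of passing pairs thus does not show that neighbors are alike. Fewer samples raise the floor, and the pairs were picked from the order of the same means. The smallest p was reached by 2 pairs. Tgfbr3 was higher in VSMC than in NK&T in 9 of 9 samples (mean log2 difference 3.19), and Ltbp1 was higher in BEC than in monocytes in 9 of 9 samples (1.88). Pairs at p = 0.00781 in the same exact test included Tgfb3 in fibroblasts over LEC (8 of 8 samples), Tgfbr3 in LEC over EC (0.79, 8 of 8), Ltbp1 in EC over BEC (2.12, 8 of 9), Tgfb2 in VSMC over BEC (1.60, 8 of 9) and Smad7 in NK&T over B cells (0.78, 8 of 8). No neighbor pair of Tgfbr1 or Skil had an unadjusted p under 0.05. The order among VSMC and fibroblasts for Tgfb3, and among fibroblasts, EC and VSMC for Tgfb2, was therefore not told apart beyond the spread. When only cells with more than 800 genes were kept, 7 of 79 pairs passed, with fewer pairs to adjust over.

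The genes whose levels followed each member most closely across cell types were taken from 110 sums over 15 types and 11146 genes, by Pearson's r of log2(CPM + 1). The sums share samples, libraries and cell types, so r is a description of these data and carries no p. Tgfb3 was followed most closely by Col4a5 (r = 0.89), Plekhh2 (0.88) and Cdh11 (0.87), Tgfbr3 by Fstl1, Fkbp10 and Lama4 (0.91 each), and Ltbp1 by Adamts12 (0.91), Sgce (0.90) and Rhoj (0.90). Tgfb2 had Tcf7l1 (0.86), Rhoj (0.81) and Ehd2 (0.80), and Tgfb1 had Dusp2 (0.81), Fxyd5 (0.79) and Il2rg (0.76). For Skil the closest were Fmnl1 (0.79), Kdm6b (0.78) and Arl5b (0.78). Likeness was weaker for the other members, whose closest genes were Tom1l1 for Tgfbr1 (0.61), Secisbp2l for Tgfbr2 (0.65) and Rassf5 for Smad7 (0.63).

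Differences between groups were tested with edgeR's quasi-likelihood test on counts summed per sample, in all cells together and in 7 cell types (BEC, EC, fibroblasts, macrophages, monocytes, NK&T and VSMC), with Benjamini-Hochberg adjustment over all genes of each fit. All 9 genes passed the filter on low counts in all cells, BEC, EC, fibroblasts and VSMC, 7 passed in monocytes and 6 each in macrophages and NK&T, which gave 64 tests. Of these, 4 were called post-LT against sham at an adjusted p under 0.05, and all 4 were lower post-LT. Over all genes, 3378 of 88090 tests (3.835%) were called. By fit, 9.21% of genes were called in all cells, 4.35% in BEC, 0.855% in EC, 1.36% in fibroblasts, 6.59% in macrophages, 0.268% in monocytes, 0% in NK&T and 4.79% in VSMC, against 1 of the 9 genes in all cells, 1 of 9 in EC, 1 of 6 in macrophages, 1 of 9 in VSMC and none in the other fits. Without adjustment, 25 of the 64 tests had p under 0.05 (22 lower and 3 higher post-LT), as did 20040 of the 88090 tests over all genes (10083 lower and 9957 higher). No member was called in NK&T, where edgeR called no gene at all (1401 of 8475 genes at an unadjusted p under 0.05). There all 6 tested members had negative fold changes, 4 of them at an unadjusted p under 0.05.

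**Figure D2:**
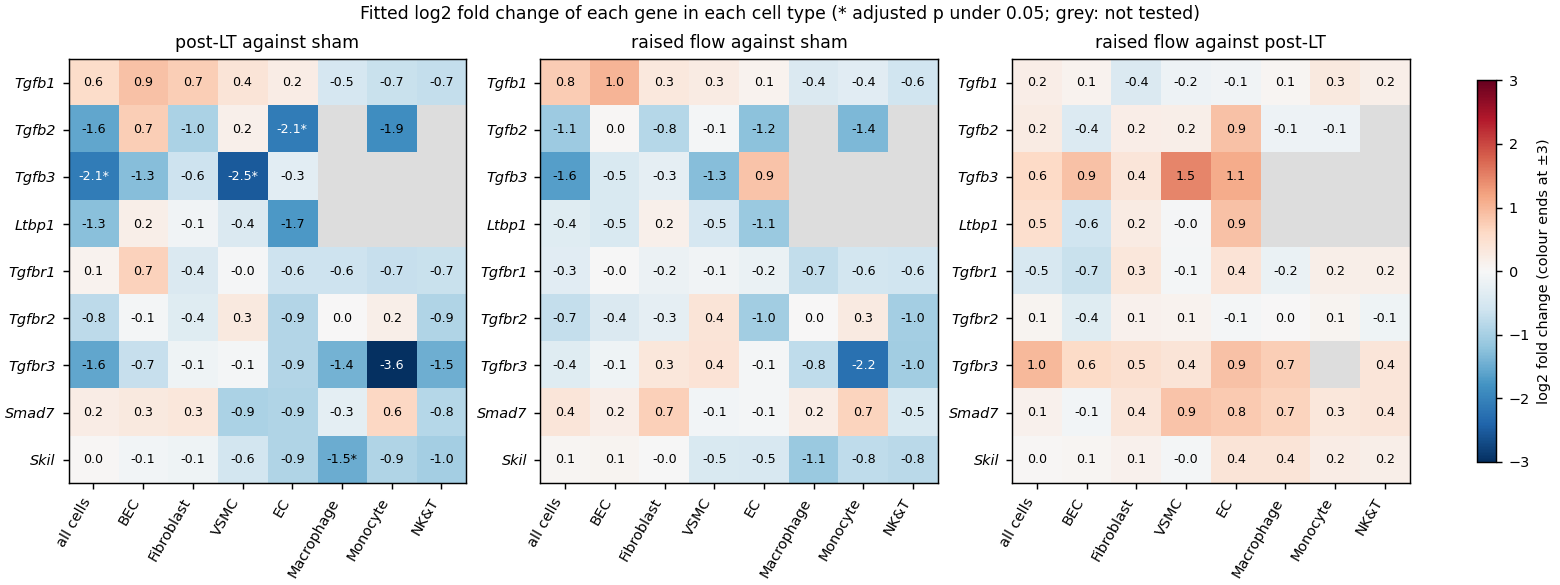
Log2 fold change of each gene in each fit for post-LT against sham, raised flow against sham and raised flow against post-LT. An asterisk marks an adjusted p under 0.05, gray a gene that was not tested, and the colors end at a log2 fold change of 3 in either direction. The 4 asterisks all stand on lower values post-LT against sham.

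Tgfb3 was called in all cells, VSMC and fibroblasts. In all cells together its level was 18.6, 37.0 and 44.9 CPM in sham 1 to 3, 2.52, 9.49 and 7.34 CPM in ctrl at days 1, 3 and 7, and 9.18, 8.80 and 9.27 CPM in treat. Sham samples did not overlap with the others. Post-LT against sham, Tgfb3 fell by 2.11 on the log2 scale (SE 0.50, 4.31-fold, edgeR adjusted p = 0.0403). Fibroblasts gave 36.3%, 88.6% and 88.5% of all Tgfb3 UMIs in the sham samples and 30.8%, 86.0% and 76.2% in ctrl, and the fibroblast share of cells, given above, was lower in ctrl than in sham 2 and sham 3. Fewer fibroblasts and less Tgfb3 RNA per cell cannot be told apart in such a total. The call was lost without sham 2, sham 3, ctrl day 3, ctrl day 7, treat day 3 or treat day 7 in turn (adjusted p between 0.0596 and 0.139), with log2 fold changes from -2.44 to -1.73 over all alternatives.

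Within VSMC, the contractile cells of vessel walls, Tgfb3 was 171, 80.2 and 87.0 CPM in sham 1 to 3, 7.97, 12.3 and 36.7 CPM in ctrl, and 64.2, 37.6 and 39.9 CPM in treat. The sham samples stood above all others, and ctrl days 1 and 3 were the lowest. Tgfb3 fell by 2.51 on the log2 scale post-LT (SE 0.56, 5.72-fold, edgeR adjusted p = 0.0335). The values rest on few molecules, with 76, 29 and 21 UMIs in sham and 25, 7 and 137 in ctrl. Against sham by day, Tgfb3 fell by 3.81 at ctrl day 1 (SE 0.58, adjusted p = 0.000987) and by 3.32 at ctrl day 3 (SE 0.67, adjusted p = 0.0133), where 4.74% and 3.02% of all genes were called in VSMC. The day 3 call, on 7 UMIs in 50 cells, did not pass when libraries entered the fit separately (adjusted p = 0.106). For each such day the lone sample was given the spread of the 3 sham samples. The summed level of the 10 VSMC markers moved in the same direction, from 30620 to 64460 CPM in sham to 10120 to 18580 CPM in ctrl and 17710 to 27710 CPM in treat. The 9 fibroblast markers summed to 527 to 3170 CPM, 1019 to 7296 CPM and 2364 to 4346 CPM in the same groups, and the part of either list in the result was not tested. The post-LT call was lost without sham 1 (adjusted p = 0.134), sham 2 (0.0671), sham 3 (0.0633), ctrl day 3 (0.105), treat day 3 (0.0507) or treat day 7 (0.0512), and without a filter on low counts (0.0522).

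**Figure D3:**
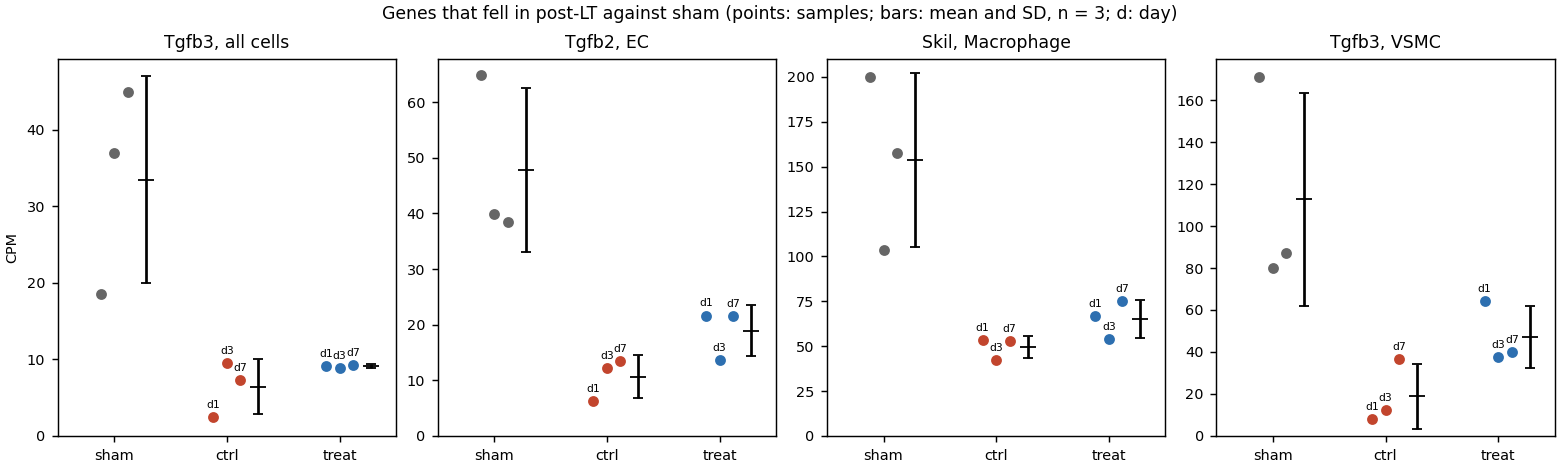
Levels (CPM) of the 4 gene and cell type pairs called post-LT against sham: Tgfb3 in all cells, Tgfb2 in EC, Skil in macrophages and Tgfb3 in VSMC. Points are samples marked with their day, and bars show the mean ± SD (n = 3). In each panel the 3 sham samples lie above the 3 ctrl samples without overlap.

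In fibroblasts, Tgfb3 fell at day 1 in both transplanted arms. Its level was 84.5, 67.6 and 78.3 CPM in sham, 9.34, 50.8 and 73.6 CPM in ctrl at days 1, 3 and 7, and 14.1, 60.8 and 92.7 CPM in treat. Only the day 1 samples were far below sham, and day 7 of each arm lay within or above the sham range. At ctrl day 1 Tgfb3 fell by 2.58 on the log2 scale (SE 0.25, 5.99-fold, edgeR adjusted p = 0.00695), where 24.9% of all genes were called. At treat day 1 it fell by 2.21 (SE 0.23, 4.61-fold, adjusted p = 0.0218), where 9.05% were called. Both contrasts use the same sham samples. By library, day 1 values ran from 4.82 to 21.5 CPM over 6 libraries of both arms and later values from 35.2 to 138 CPM over 10 libraries, so the 2 sets did not overlap. No member was called in fibroblasts in the whole post-LT group against sham.

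The day 1 fibroblasts also fell mostly in a different cluster. Of the 3 fibroblast clusters, cluster 9 (leading genes Mgp, Dcn and Ptx3) held 95.6% of fibroblasts at ctrl day 1 and 97.6% at treat day 1. It held 12.5% or less in the other 7 samples. Cluster 6 (Col1a1, Col3a1) held 85.0% to 97.4% at days 3 and 7, and cluster 10 held 51.8% to 70.2% of sham fibroblasts. Within cluster 9, Tgfb3 was 8.47 and 13.5 CPM at day 1 and 11.0 to 30.2 CPM at days 3 and 7. In sham 2 and sham 3, the sham samples with at least 20 such cells, it was 0 and 30.1 CPM. These sham values rest on few UMIs, from at most 32 cells in a sample. Within cluster 6 it was 56.7 to 77.1 CPM in sham, 54.7 to 95.5 CPM at days 3 and 7, and 35.6 CPM at treat day 1 in 113 cells. Levels in cluster 9 were thus at or under 30.2 CPM at every day and in sham, and the fall in the whole type came together with the shift between clusters, whose part in the result was not tested. The 9 fibroblast markers summed to 48430 to 62890 CPM in sham and to 11050 and 26880 CPM at day 1 of ctrl and treat. The 10 neutrophil markers summed to 14.7 to 34.9 CPM in the sham fibroblasts and to 230 and 118 CPM at day 1, and their part was not tested either.

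**Figure D4:**
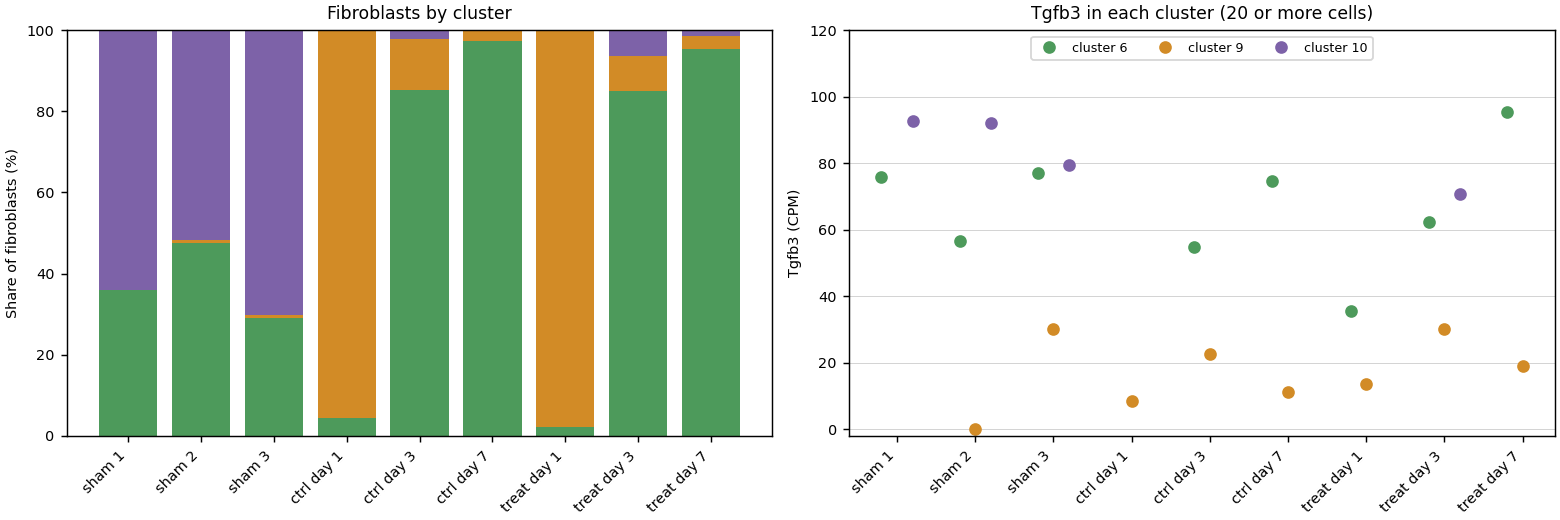
Left, share of fibroblasts (%) in clusters 6, 9 and 10 in each sample. Right, Tgfb3 level (CPM) in each cluster with at least 20 cells. Cluster 9 holds nearly all fibroblasts of the day 1 samples, and its Tgfb3 level lies at or under 30.2 CPM in every sample.

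In the other types Tgfb3 was not called. In BEC it was 5.39, 9.69 and 13.6 CPM in sham, 3.21, 4.67 and 2.69 CPM in ctrl and 8.22, 4.58 and 7.15 CPM in treat. The 3 ctrl values lay below the 3 sham values (log2 fold change -1.29, edgeR adjusted p = 0.0857), and the treat values overlapped with sham. In EC, Tgfb3 was 0.720 to 2.44 CPM in sham, 0.961 to 1.96 CPM in ctrl and 2.54 to 3.31 CPM in treat. In EC cluster 29, which also carried VSMC markers, the Tgfb3 level was 4.40 and 5.11 CPM in the 2 ctrl samples with at least 20 of its cells, against 0 CPM in all 3 ctrl samples in cluster 5, which held 89.1% to 97.6% of ctrl EC.

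Tgfb2 fell in EC post-LT. Its level was 64.8, 40.0 and 38.5 CPM in sham, 6.25, 12.3 and 13.4 CPM in ctrl and 21.6, 13.6 and 21.5 CPM in treat, from 90, 82 and 91 UMIs in sham and 26, 25 and 104 in ctrl. Sham stood above every transplanted sample, and the treat samples lay above the ctrl samples. Post-LT against sham, Tgfb2 fell by 2.09 on the log2 scale (SE 0.29, 4.26-fold, edgeR adjusted p = 0.0149; mean 10.7 ± 3.86 CPM in ctrl and 47.8 ± 14.8 CPM in sham, n = 3 each). With raised flow the log2 fold change against the same sham samples was -1.23 (SE 0.27, adjusted p = 0.202), and against ctrl 0.89 (adjusted p = 0.476), neither of which passed. By library, Tgfb2 in EC was 5.48 to 14.4 CPM over 7 ctrl libraries, 10.8 to 30.5 CPM over 8 treat libraries and 38.5 to 64.8 CPM in the 3 sham libraries. Cluster 5, the main EC cluster, gave the same picture alone, at 36.2 to 67.1 CPM in sham, 7.07 to 11.6 CPM in ctrl and 14.6 to 22.8 CPM in treat. The 10 EC markers summed to 6898 to 11940 CPM in sham, 4200 to 5385 CPM in ctrl and 5170 to 5747 CPM in treat, and the 10 neutrophil markers in EC to 14.4 to 18.0 CPM, 328 to 609 CPM and 83.8 to 340 CPM. The part of these lists, and of the acinar markers given above, in the result was not tested. The call was lost without sham 2 (adjusted p = 0.0657) or ctrl day 3 (0.0838).

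In fibroblasts Tgfb2 was 56.8, 28.6 and 36.8 CPM in sham, 8.48, 16.6 and 28.4 CPM in ctrl and 16.0, 17.0 and 24.3 CPM in treat. All 6 transplanted samples lay below the lowest sham value, ctrl day 7 only just. It fell by 1.71 on the log2 scale at ctrl day 1 (SE 0.40, edgeR adjusted p = 0.0316). In VSMC, Tgfb2 was 18.0, 27.6 and 29.0 CPM in sham, 4.14, 28.1 and 49.3 CPM in ctrl and 32.6, 17.4 and 19.6 CPM in treat. Ctrl day 1 was the lowest sample and ctrl day 7 the highest. At ctrl day 1 Tgfb2 fell by 2.48 against sham (SE 0.62, adjusted p = 0.0298), on 13 UMIs against 8, 10 and 7 in sham. That call was lost with DESeq2 (adjusted p = 0.146) and with doublets kept (0.0555).

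In LEC, a type too scarce at ctrl day 3 (16 cells) to be fitted, Tgfb2 was 12.9, 17.8 and 17.2 CPM in sham, 46.0 and 14.6 CPM at ctrl days 1 and 7, and 176, 15.8 and 31.7 CPM in treat. Treat day 1 stood far above the other samples, and its 3 libraries (119 to 246 CPM) lay above the 11 other libraries with at least 20 LEC (2.66 to 94.5 CPM). Ctrl day 1, with 54 LEC, was the next highest sample. The difference was not tested.

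**Figure D5:**
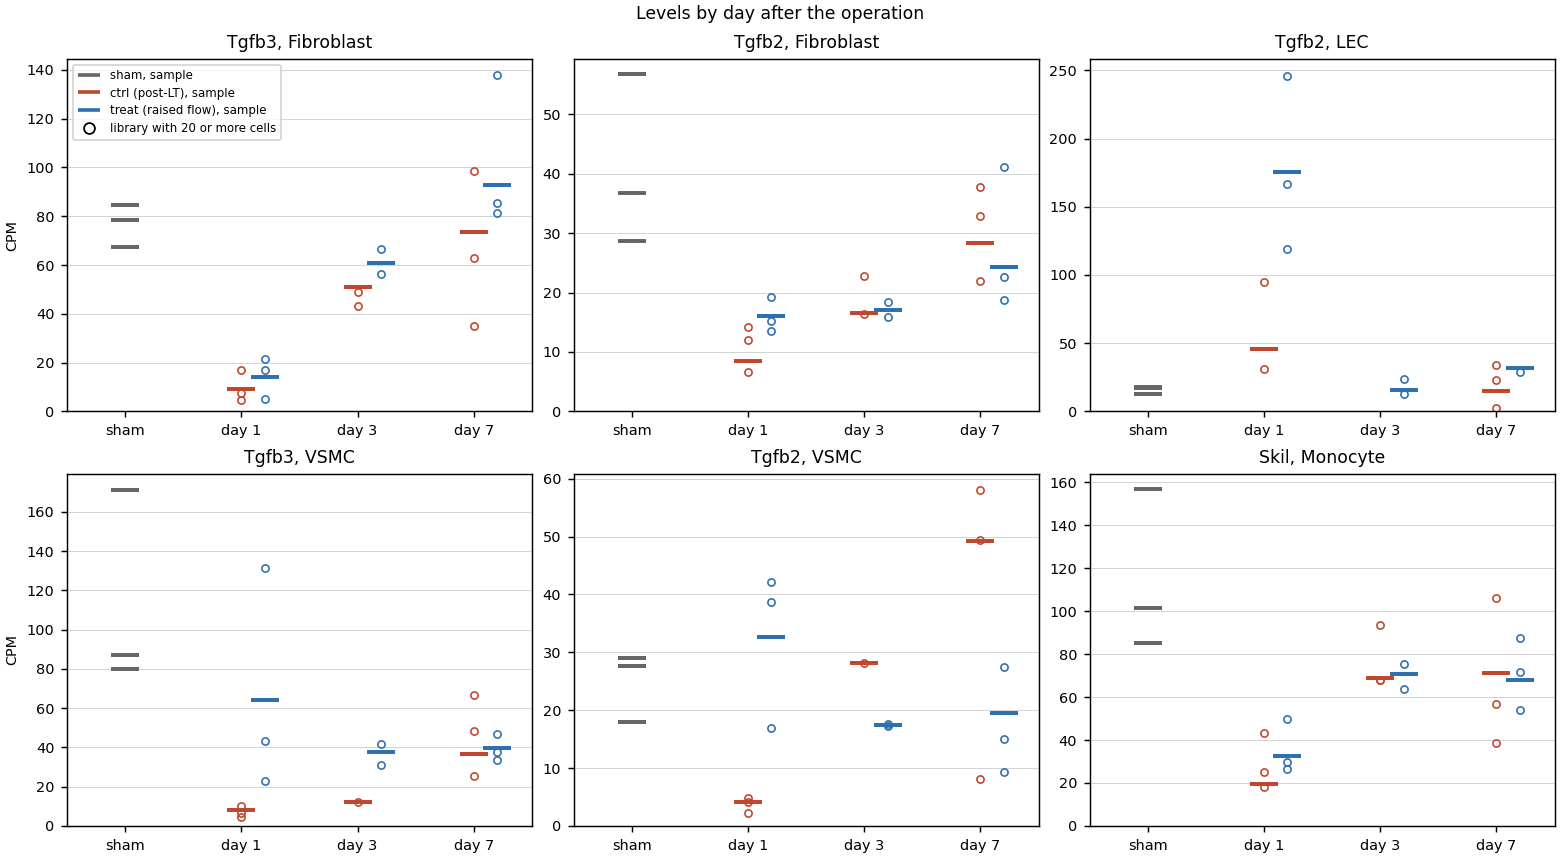
Levels (CPM) of Tgfb3 and Tgfb2 in fibroblasts, Tgfb2 in LEC, Tgfb3 and Tgfb2 in VSMC and Skil in monocytes, in each sample. Bars are samples, and open circles are libraries with at least 20 cells. Both fibroblast ligands are lowest at day 1, Tgfb2 in LEC is highest at treat day 1, and Skil in monocytes is lowest at day 1 of both arms.

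In monocytes Tgfb2 was called at ctrl day 7 (edgeR adjusted p = 0.0449) and treat day 3 (adjusted p = 0.000332). These calls rest on 6 and 1 UMIs against 5, 3 and 0 in the sham samples, so no fold change is given. The first was lost in 6 of 10 alternatives. Of all genes, 1.94% and 4.02% were called in monocytes in these contrasts. Tgfb2 in monocytes reached 10.1 CPM (193 UMIs) at treat day 1.

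Tgfb1 had no call in any contrast. In BEC it was 8.75, 11.5 and 12.96 CPM in sham, 11.0, 20.2 and 23.4 CPM in ctrl and 11.6, 22.3 and 29.3 CPM in treat at days 1, 3 and 7. Day 1 of each arm lay within the sham range, and days 3 and 7 lay above it. The log2 fold change was 0.88 post-LT (SE 0.34, edgeR adjusted p = 0.165) and 1.02 with raised flow (adjusted p = 0.288) against the same sham samples. Free RNA could account for 3.93% to 20.7% of these UMIs in BEC. In macrophages Tgfb1 was 262, 260 and 246 CPM in sham, 209, 151 and 142 CPM in ctrl and 171, 200 and 154 CPM in treat. Sham did not overlap with the transplanted samples, and the log2 fold change post-LT was -0.50 (adjusted p = 0.142). In NK&T Tgfb1 was 300 to 358 CPM in sham, 136 to 265 CPM in ctrl and 198 to 216 CPM in treat (-0.72 post-LT, edgeR adjusted p = 0.191). Single NK&T libraries of ctrl day 1 ran from 221 to 425 CPM and overlapped with sham. In monocytes Tgfb1 was 264 to 369 CPM, 143 to 178 CPM and 183 to 238 CPM in the same groups (-0.68 post-LT, edgeR adjusted p = 0.190). In EC the values were 148, 132 and 115 CPM in sham, 183, 151 and 103 CPM in ctrl and 134, 155 and 104 CPM in treat, and the groups overlapped.

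The carrier Ltbp1 had no call. In EC it was 41.8, 57.5 and 57.1 CPM in sham, 6.97, 5.89 and 30.6 CPM in ctrl and 28.5, 11.4 and 29.7 CPM in treat. Sham lay above every other sample, with a log2 fold change post-LT of -1.72 (SE 0.57, edgeR adjusted p = 0.166). Single EC libraries overlapped with sham, reaching 51.9 CPM at ctrl day 7 and 63.9 CPM at treat day 7. In VSMC, Ltbp1 overlapped between groups, at 72.1, 133 and 133 CPM in sham, 79.4, 130 and 48.5 CPM in ctrl and 66.2, 83.2 and 80.5 CPM in treat. In LEC, which were not tested, it ran from 98.3 to 157 CPM in sham, was 37.9 and 68.7 CPM at ctrl days 1 and 7, and ran from 87.9 to 218 CPM in treat.

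Among the receptors, the 1 call was Tgfbr1 in monocytes at ctrl day 1. Its level in monocytes was 32.2, 40.7 and 20.3 CPM in sham, 7.11, 17.5 and 24.1 CPM in ctrl and 10.4, 14.9 and 28.5 CPM in treat. Ctrl day 1 was the lowest sample, and day 7 of each arm lay within the sham range. It fell by 1.80 on the log2 scale (SE 0.61, edgeR adjusted p = 0.0347), where 10.4% of all genes were called, and the call was lost in 6 of 10 alternatives (adjusted p between 0.0729 and 0.126). In cluster 12, which held 96.3% of the ctrl day 1 monocytes, Tgfbr1 was 6.12 CPM at ctrl day 1, against 35.3 CPM in sham 1, the one sham sample with at least 20 such cells. In cluster 4, which held 31 of the 837 ctrl day 1 monocytes, Tgfbr1 was 39.5 CPM at ctrl day 1. It was 19.6 and 44.0 CPM in the 2 sham samples with at least 20 such cells. These values rest on few UMIs, so no likeness within the cluster is read from them. The summed neutrophil markers of ctrl day 1 monocytes were 20050 CPM against 224 to 435 CPM in sham, and their part in this result was not tested.

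Tgfbr1 in BEC, the type with one of its highest levels, was 61.9, 52.4 and 50.9 CPM in sham, 79.8, 85.0 and 56.2 CPM in ctrl and 53.9, 32.9 and 61.3 CPM in treat. Ctrl days 1 and 3 were the highest samples, treat day 3 was the lowest, and the log2 fold change of 0.68 post-LT did not pass (edgeR adjusted p = 0.118). Single libraries ran from 29.8 to 121 CPM at ctrl day 1 and from 28.5 to 116 CPM at treat day 7, below and above the sham range. Tgfbr2 was 118, 52.2 and 52.9 CPM in EC of the sham samples, 14.7, 47.1 and 54.3 CPM in ctrl and 23.3, 34.9 and 40.6 CPM in treat. Day 1 was the lowest sample of each arm, all treat samples lay below sham, and the log2 fold change with raised flow was -1.04 without passing the adjusted threshold. In LEC, Tgfbr2 was 179, 92.0 and 94.5 CPM in sham, 18.9 and 32.2 CPM at ctrl days 1 and 7, and 18.5, 41.3 and 47.6 CPM in treat, so that sham did not overlap with the other samples in this untested type.

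The co-receptor Tgfbr3 in EC was 132, 107 and 125 CPM in sham, 36.8, 69.6 and 83.8 CPM in ctrl and 103, 92.9 and 131 CPM in treat. The ctrl samples lay below all others, and treat overlapped with sham. Single libraries of ctrl day 7 ran from 55.8 to 110 CPM and overlapped with sham. The log2 fold change was -0.89 post-LT against sham (SE 0.25, edgeR adjusted p = 0.113) and 0.87 with raised flow against post-LT (SE 0.19, adjusted p = 0.355). In fibroblasts, the type with its highest mean, Tgfbr3 was 292, 141 and 196 CPM in sham, 159, 142 and 177 CPM in ctrl and 188, 234 and 263 CPM in treat, and the groups overlapped.

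Skil fell in macrophages post-LT. Its level was 200, 103 and 158 CPM in sham, 53.5, 42.2 and 52.7 CPM in ctrl and 66.7, 54.0 and 75.1 CPM in treat. Sham stood above all other samples, and the ctrl samples were the lowest. Skil fell by 1.49 on the log2 scale (SE 0.26, 2.81-fold, edgeR adjusted p = 0.0247). With raised flow the log2 fold change against the same sham samples was -1.11 (SE 0.26, adjusted p = 0.0551), the closest to the threshold in that contrast. The 10 macrophage markers summed to 13270 to 21200 CPM in sham, 18590 to 25470 CPM in ctrl and 21530 to 21720 CPM in treat, and the 10 neutrophil markers in macrophages to 24.5 to 83.9 CPM, 205 to 712 CPM and 123 to 919 CPM, whose part was not tested. Cluster 14, with few UMIs per cell, held 318 of the 389 macrophages of sham 1. Over the sham samples the share of cluster 14 ran from 5.85% to 81.7% of macrophages, and over the ctrl samples from 27.95% to 77.99%. Its Skil level overlapped between groups, at 0 to 24.2 CPM in sham and 4.32 to 21.7 CPM in ctrl. In cluster 8, Skil was 71.3 and 105 CPM in 2 sham samples and 18.6 to 47.8 CPM in ctrl. In cluster 19 Skil was 182 to 380 CPM in sham, 54.0 to 142 CPM in ctrl and 76.3 to 146 CPM in treat. Cluster 19 held 18.0% to 30.7% of sham macrophages and 10.0% to 18.6% of ctrl macrophages. The part of these cluster shares in the result was not tested. The libraries of ctrl day 1 ran from 37.5 to 125 CPM and overlapped with the lowest sham library. The call was lost without sham 2 (adjusted p = 0.0637), sham 3 (0.150), ctrl day 1 (0.0664) or ctrl day 3 (0.104).

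In monocytes Skil fell at day 1 of both arms. The levels were 157, 85.4 and 102 CPM in sham, 19.6, 68.8 and 71.3 CPM in ctrl and 32.5, 70.7 and 67.9 CPM in treat. All transplanted samples lay below sham, day 1 furthest. The log2 fold change was -2.25 at ctrl day 1 (SE 0.52, edgeR adjusted p = 0.000823) and -1.77 at treat day 1 (SE 0.50, adjusted p = 0.0161), where 4.5% of all genes were called. The sham samples held 47, 87 and 113 monocytes. By library, day 1 ran from 18.1 to 49.6 CPM (6 libraries) and days 3 and 7 from 38.5 to 106 CPM (11 libraries), with some overlap. Cluster 12, whose leading genes include S100a8 and S100a9, held 806 of 837 and 1998 of 2101 monocytes at day 1 of ctrl and treat. The 10 neutrophil markers in monocytes, of which Ngp was at 0 in every sample, summed to 224 to 435 CPM in sham, to 20050 and 19870 CPM at day 1 and to 743 to 4951 CPM at days 3 and 7, and their part in the result was not tested. In cluster 4, Skil was 92.9 and 111 CPM in 2 sham samples, 13.2 CPM at ctrl day 1 (31 cells) and 45.8 CPM at treat day 1. The ctrl day 1 value in so few cells rests on few UMIs, so no change within the cluster is read from it. The treat day 1 call was lost without a filter on low counts (adjusted p = 0.0595) and with DESeq2 (0.0791).

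Smad7 had no call. In EC it was 83.5, 73.1 and 86.7 CPM in sham, 40.8, 27.5 and 54.8 CPM in ctrl and 58.6, 91.3 and 64.0 CPM in treat. The ctrl samples were the lowest and treat overlapped with sham, with a log2 fold change post-LT of -0.90 (edgeR adjusted p = 0.16). Single EC libraries of ctrl day 1 ran from 16.3 to 105 CPM, so that the highest lay above every sham value. In NK&T, the type with its highest mean, Smad7 was 304, 244 and 322 CPM in sham, 188, 108 and 164 CPM in ctrl and 297, 126 and 191 CPM in treat. As sums per sample, sham and ctrl did not overlap, while treat day 1 lay among the sham values. Single libraries of ctrl did overlap with sham, running from 128 to 325 CPM at day 1 and from 158 to 263 CPM at day 7. In BEC the values overlapped, at 67.0, 57.6 and 63.1 CPM in sham, 73.5, 47.3 and 71.8 CPM in ctrl and 43.9, 62.8 and 87.8 CPM in treat.

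By cell type, 8 of 9 fold changes in EC were negative post-LT, with a median of -0.89 against -0.01 for all genes, and 6 had an unadjusted p under 0.05 (1966 of 10406 over all EC genes), of which only Tgfb2 was called. Skil (-0.89, edgeR adjusted p = 0.0838) and Tgfbr1 (-0.61, adjusted p = 0.227) were the members of these 6 not given above. In BEC, 4 of 9 were negative with a median of 0.17 (all genes -0.01), and in fibroblasts the median was -0.14 (all genes 0.03). The median was -0.56 over 6 members in macrophages (all genes -0.04), -0.88 over 6 in NK&T (all genes -0.01) and -0.05 over 9 in VSMC (all genes 0.03). In monocytes the median of all genes was itself 0.12 post-LT and 0.11 with raised flow, against -0.69 and -0.55 over 7 members.

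Raised flow against sham gave no call among the 64 tests, where 0.334% of all genes were called. edgeR had 14 members at an unadjusted p under 0.05 (12 lower and 2 higher, against 6825 lower and 7356 higher of 88090 tests over all genes), and DESeq2 called 3. Raised flow against post-LT, paired by day, also gave none of 64 with edgeR, where 0.0316% of all genes were called, and DESeq2 called 0. All 9 tests of members with an unadjusted p under 0.05 in that contrast were higher with raised flow, where 7405 of 88490 tests over all genes passed it, 3619 of them higher. They included Tgfb2, Tgfb3 and Tgfbr3 in EC, Tgfb3 in BEC (log2 fold change 0.87, adjusted p = 0.362) and Smad7 in macrophages (0.67, adjusted p = 0.726). For each day alone against sham, 11 of 384 tests were called, all lower, against 1.87% of all genes. Of these 11, 3 were in fibroblasts, 5 in monocytes and 3 in VSMC.

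The rest of the pathway was read from a list of 49 genes in 5 groups. Post-LT against sham, 13 of 343 tests were called, 4 higher and 9 lower, a share near the 3.835% over all genes. Ltbp4, another latent ligand carrier, fell in EC (log2 fold change -1.34, SE 0.23, edgeR adjusted p = 0.0348). It was 85.7, 113 and 103 CPM there in sham, 32.4, 35.8 and 46.0 CPM in ctrl and 57.2, 44.6 and 37.8 CPM in treat, so that sham did not overlap with the others. Ltbp4 also fell in fibroblasts (-1.80, SE 0.28, adjusted p = 0.0259), where it was 540, 278 and 389 CPM in sham, 73.8, 113 and 110 CPM in ctrl and 248, 174 and 187 CPM in treat. In all cells Ltbp4 fell by 2.92, from 77.0, 165 and 218 CPM in sham to 13.2, 22.3 and 14.6 CPM in ctrl. As for Tgfb3, fewer fibroblasts and less RNA per cell cannot be told apart in such a total. In macrophages Ltbp4 fell by 3.58, from a level of at most 4.87 CPM. Mmp14, a membrane protease that can release latent TGF-β, rose in EC (2.04) and in VSMC (2.29). Its EC level was 7.20, 7.80 and 13.5 CPM in sham, 37.5, 53.5 and 26.9 CPM in ctrl and 20.1, 13.3 and 11.9 CPM in treat. Lrrc32 (GARP), a cell-surface docking protein for latent TGF-β, fell in EC (-0.91), and Furin, the protease that cuts the ligand precursors, rose in BEC (1.10). Raised flow against sham gave 1 call on the list, Fkbp1a in macrophages (0.94), and raised flow against post-LT gave none of 341. These calls depend on single samples. Without ctrl day 3 no gene of the list was called post-LT (13 with all samples). Without sham 2 or without sham 3 the list had 1, and with DESeq2 the list had 40. The shares of all genes called in these alternatives are not given here, so these counts are no result about the list. Lrrc32 in EC was called in 7 of 19 alternatives, Mmp14 in VSMC in 10, and Ltbp4 in EC in 14.

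By day, the list gave 19 calls at ctrl day 1 (5 higher and 14 lower), 6 at day 3 (2 and 4) and 7 at day 7 (4 and 3), and 7, 7 and 6 calls at treat days 1, 3 and 7, of 343 tests each time. Over all genes of the 8 fits, 5.258%, 0.7776% and 1.385% of tests were called at ctrl days 1, 3 and 7 and 1.953%, 1.072% and 0.7799% at treat days 1, 3 and 7. In fibroblasts at ctrl day 1, Col1a1, a collagen and target gene, fell by 2.32 on the log2 scale. In VSMC the target gene Ccn2 was 514, 307 and 216 CPM in sham, 27.4, 29.9 and 364 CPM in ctrl and 316, 344 and 303 CPM in treat. Ctrl days 1 and 3 alone lay below the sham range, and Ccn2 fell there by 3.63 and 3.65 (by 1.32 at day 3 with doublets kept, where it was not called). Ctrl day 3 held 50 VSMC. Tgfb3 and the summed VSMC markers, given above, lay below sham in every transplanted sample of VSMC. Whether either has a part in the Ccn2 levels was not tested. In fibroblasts Ccn2 was instead 31.9, 41.4 and 78.4 CPM in sham and 19.7, 382 and 185 CPM in ctrl. Treat fibroblasts had 81, 234 and 336 CPM, and days 3 and 7 of both arms lay above the sham range. Fn1, which encodes fibronectin, rose in VSMC at ctrl day 7 (3.56) and at treat days 1, 3 and 7 (1.96, 2.97 and 2.88). All these contrasts use the same 3 sham samples.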

How the data were processed

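Bile duct cells of 9 samples (20 libraries) were measured by 10x Genomics 3' RNA sequencing. The authors deposited raw UMI counts per gene and barcode, empty barcodes included, without normalization. The matrix headers name Cell Ranger 4, the submitters' processing notes Cell Ranger 5.0.1 and Seurat 3.2.0, and the genome build is not given in the sources used here, so no coordinates are stated. Of 23999 features (23836 symbols), counts sharing a symbol were added. The 9 genes and all lists were chosen with earlier results of these data known.

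Barcodes were kept with over 400 and under 6000 genes and with mitochondrial UMIs under 25% and hemoglobin UMIs under 3%, and 10415 presumed doublets above the 92.5th percentile of a score from simulated doublets were removed. Cells were clustered on 30 components of 2000 variable genes, without the 9 genes and the pathway list, by the Leiden method (resolution 0.9, 39 clusters). Clusters were named from at least 3 detected markers (over 10% of cells, over 2-fold), under a naming rule settled after the clusters had been seen. The remaining clusters stayed unnamed. No correction for free RNA was applied, except as an alternative from barcodes with up to 100 UMIs.

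UMI counts were summed over the libraries of a sample and the cells of a type, and tested with edgeR 4.0.16 (TMM, filterByExpr, robust quasi-likelihood; R 4.3.3) and Benjamini-Hochberg adjustment. Fits were made of 3 groups (9 samples), of raised flow against post-LT with day as a block, and of each day against sham, whose lone sample was given the spread of the sham samples. The labels pair ctrl and treat samples by day. Fold changes are on the TMM scale and printed levels are plain CPM. Scripts were tested on simulated data. All 9 genes were named, and of the pathway list those called with at most the 3 largest changes in a direction and comparison. One gene of that list is not reported here. Likeness to a member was Pearson's r of log2(CPM + 1) over sums per sample and type, and the 3 highest genes were named among those over 10 CPM on average in at least 1 type. Alternatives were RLE factors, total counts, no filter, DESeq2 1.42.0, each library as its own sample, leaving out each sample, doublets kept, over 800 genes, no hemoglobin limit, resolution 2, free RNA subtracted and, chosen after seeing the data, leaving out the 2 hemoglobin-rich libraries.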

Additional observations from a re-analysis of the deposited data

How the results depend on the processing

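No fold change given in the report changed sign under any alternative run. Post-LT against sham, 4 members were called, 12 with DESeq2 and between 0 and 7 when each sample was left out in turn: 0 without sham 2 or ctrl day 3, 1 without sham 3, 2 without treat day 3 or treat day 7, and 7 without treat day 1. Raised flow against sham gave 0 calls, and 1 with no filter on low counts, 1 with each library as its own sample, 1 with cells of over 800 genes, 3 with DESeq2 and 0 to 1 with a sample left out (1 without sham 1). Raised flow against post-LT gave 0, also without the block of day that pairs the samples, but 3 with no filter on low counts and 0 to 2 with a sample left out. Each day against sham gave 11 calls, and 20 with no filter, 20 with DESeq2 and 40 with each library as its own sample. Neighboring cell types gave 0 pairs that differ, and 7 with cells of over 800 genes. The shares of all genes called under these alternatives are not given here, so the counts are no result about the members. Fits with each library as its own sample treat libraries of a sample as replicates. In counts simulated for post-LT against sham, 5.10% of calls with edgeR and 15.25% with DESeq2 were false in all cells. In simulated BEC these shares were 2.86% and 14.29%. The cause of these changes was not tested. Tgfb2 in EC was called in 17 of 19 alternatives, Skil in macrophages in 15, Tgfb3 in all cells in 13 and Tgfb3 in VSMC in 12, and the 3 fibroblast calls at day 1 in 10 of 10. The hemoglobin limit was lifted in all cells only, and samples were not left out for single days. Each post-LT time point is 1 sample, so time and sample cannot be told apart, and several sums rest on under 30 UMIs in a sample, among them Tgfb2 and Tgfb3 in VSMC, Tgfb2 in EC and Tgfb2 in monocytes.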

Other observations

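Clusters that no marker list named also held members of the pathway. Cluster 22, led by Gata3, Il2ra and Tnfrsf18, had Tgfb1 at 411, 458 and 489 CPM in sham, 272, 276 and 227 CPM in ctrl and 275, 515 and 310 CPM in treat. Its Smad7 level ran from 193 to 709 CPM and its Tgfbr3 level from 37.4 to 104 CPM over the samples. Cluster 25, led by Lag3 and low in UMIs per cell, had Tgfb1 at 594 to 1145 CPM in the samples with at least 20 of its cells. Cluster 16, which carried markers of both tuft cells and BEC, had Tgfbr2 at 11.5 to 44.2 CPM. These values were not tested.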
